A study of Mus musculus with 48 samples.

Results

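A set of 10 genes that shape how hepatocytes read insulin, glucagon and leptin, and how they place glycogen, were followed through 48 whole mouse livers measured by RNA-seq. They were taken by gene symbol from a joined table of read counts, and all 10 were found among 29221 genes. They are Insr, Irs1, Irs2, Pik3r1 and Foxo1 of the insulin pathway, the glucagon receptor gene Gcgr, the leptin receptor gene Lepr, and the glycogen-targeting genes Ppp1r3b, Ppp1r3c and Ppp1r3g. All mice were adults with a floxed Pparg gene, which encodes the lipid-handling nuclear receptor PPARgamma. The strain is not given in the sources used here. Males were fed a high fat diet (HF) for 34 weeks, or HF for 18 weeks followed by 16 weeks of a high fat, cholesterol and fructose diet (HFCF). Females were on these same diets or on a low fat diet (LF) for 34 weeks. After 16 weeks on diet each mouse received either AAV8-TBG-null (control) or AAV8-TBG-Cre (knockout), a viral vector in which the hepatocyte promoter TBG drives Cre, so the Cre is aimed at hepatocytes and not at the other cells of the liver. This gave 10 groups, with 6 livers in each of the 4 male groups and 4 in each of the 6 female groups, each liver from a separate mouse.

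Insulin binds the receptor encoded by Insr, which phosphorylates the docking proteins Irs1 and Irs2. These recruit phosphoinositide 3-kinase, whose main regulatory subunit is encoded by Pik3r1, and the resulting AKT activity keeps the transcription factor Foxo1 out of the nucleus. Glucagon acts the other way in the fasted liver: its receptor, encoded by Gcgr, raises cAMP and with it glycogen breakdown and glucose output. Ppp1r3b, Ppp1r3c and Ppp1r3g encode subunits that bring protein phosphatase 1 to glycogen, where it switches glycogen synthase on. Leptin, made by fat cells, acts mainly in the brain, and the liver makes several forms of its receptor, among them a short form from which soluble receptor can be shed. Gene-level counts do not separate these forms.

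Depth ran from 15338239 to 22072884 reads on genes per library. Levels are given in CPM, a gene's share of its library's counts put on a common scale, after TMM scaling for differences in library composition, with errors as standard deviations (SD) over livers. Pparg, the gene targeted, was not lower in any Cre group: its mean was 34.3 CPM in control and 41.2 CPM in knockout HF males, and it was higher in knockout HFCF males (log2 difference 0.81 ± 0.11 SE, edgeR adjusted p = 0.000805) and HFCF females (0.97 ± 0.13, edgeR adjusted p = 0.0422). Counts over the whole gene do not show which exons were present, and the Cre groups are called labelled knockouts here. By mean log2 CPM over 16236 genes, 3 libraries lay closer to a group on another diet than to their own group: HFCF control male 1, HF control female 1 and HFCF labelled knockout female 1. Pearson r with the own and the closest group was 0.977 and 0.989, 0.971 and 0.984, and 0.969 and 0.972 in that order. The gap was thus smallest for HFCF labelled knockout female 1. Another 17, all 8 LF females among them, lay closest to the other vector group of their own sex and diet, and 28 lay closest to their own group. Each library was left out of its own group's mean, which thus rested on fewer livers and can correlate less for that reason alone. In LF females the gaps in r lay between those of control 3 (own 0.9865, other 0.9870) and control 1 (0.9754, 0.9784). The 17 were therefore not read as resembling the other vector group more than their own. Differences of the 10 genes that were called with those 3 libraries are also given without them, a comparison added after the data had been seen. Since they were picked for lying closer to another diet, leaving them out can by itself widen differences between diets. Values without them are therefore descriptions and no independent support. The hepatocyte markers (8 of 8, Alb and Ttr among them) were detected in every group, whereas the 4 of 8 pancreas markers analysed here summed to at most 1.23 CPM in any liver. In whole liver, fewer cells of a type and less RNA per cell cannot be told apart.

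The bases upstream of the starts of Lepr, Ppp1r3c and Ppp1r3g are shown because these 3 genes had the widest ranges of the group means. They are from RefSeq (GRCm38.p6), written 5′ to 3′ along the gene from 250 bases before the first listed start. Capitals mark a match to CACGTG (the E-box read by carbohydrate-sensing and clock factors) or TGACG (the core of the cAMP response element).
Lepr, chr4:101717157-101717403, + strand: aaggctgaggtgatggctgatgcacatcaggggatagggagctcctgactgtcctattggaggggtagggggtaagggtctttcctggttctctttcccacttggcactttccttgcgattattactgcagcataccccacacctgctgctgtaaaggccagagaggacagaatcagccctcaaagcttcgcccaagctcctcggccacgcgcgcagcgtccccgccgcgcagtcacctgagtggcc
Ppp1r3c, chr19:36736654-36736854, - strand: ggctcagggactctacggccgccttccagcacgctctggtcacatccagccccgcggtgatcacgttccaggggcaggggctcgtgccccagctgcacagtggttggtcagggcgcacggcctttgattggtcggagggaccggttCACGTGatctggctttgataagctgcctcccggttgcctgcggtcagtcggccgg
Ppp1r3g, chr13:35967656-35967870, + strand: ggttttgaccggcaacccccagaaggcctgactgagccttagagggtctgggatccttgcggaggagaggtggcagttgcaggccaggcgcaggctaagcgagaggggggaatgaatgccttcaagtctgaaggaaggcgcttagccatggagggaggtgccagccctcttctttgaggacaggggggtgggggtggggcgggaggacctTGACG
The stretches of Lepr and Ppp1r3c end where the GENCODE annotation places the first exon. The last 18 bases of the Ppp1r3g stretch lie in an untranslated exon of another GENCODE transcript. These 4 motifs were searched on both strands over the whole 250 bases: the E-box CACGTG, the cAMP core TGACG, the nuclear receptor motif AGGTCA and the forkhead site TGTTTAC, to which Foxo1 binds. Ppp1r3c held CACGTG 104 bases before the start, and Ppp1r3g held TGACG 40 bases before it. Neither Lepr window held any of the 4 motifs. Among 32851 promoters of the same length, 6.02% held CACGTG, 17.8% TGACG, 14.0% AGGTCA and 3.17% TGTTTAC. RefSeq windows were matched for 8 of the 10 genes, all but Insr and Ppp1r3b. Irs1 and Irs2 also held CACGTG, and Irs1 and the second start of Pik3r1 held TGACG, while AGGTCA and TGTTTAC were in none of the windows of these genes.

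Per kilobase of transcript, Gcgr was the most abundant of the 10 genes, at 132 CPM per kb over the 48 livers. Ppp1r3b followed at 29.6, Insr at 14.3, Ppp1r3c at 13.1 and Pik3r1 at 11.5 CPM per kb. Irs2 (6.36), Foxo1 (5.09), Lepr (3.79), Irs1 (1.997) and Ppp1r3g (1.87 CPM per kb) were lower. Irs2 thus stood above Irs1 on the same per-length scale. However, Irs1 shares 2822 of its 9144 exon bases with Gm9747 on the other strand, which had 0 reads in all libraries. For Irs2 the shared stretch is 162 bases and for Foxo1 674. How reads there were assigned is not known, and the libraries were not strand specific, so Irs1 could be counted too low. Between its highest and lowest group mean, Lepr spanned 42.2-fold and Ppp1r3g 13.3-fold, against 3.004-fold for Ppp1r3c, 2.84-fold for Ppp1r3b, 2.36-fold for Irs2, 1.81-fold for Gcgr and 1.74-fold for Irs1. Insr spanned 1.59-fold, and Foxo1 and Pik3r1 1.44-fold each.

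**Figure D1:**
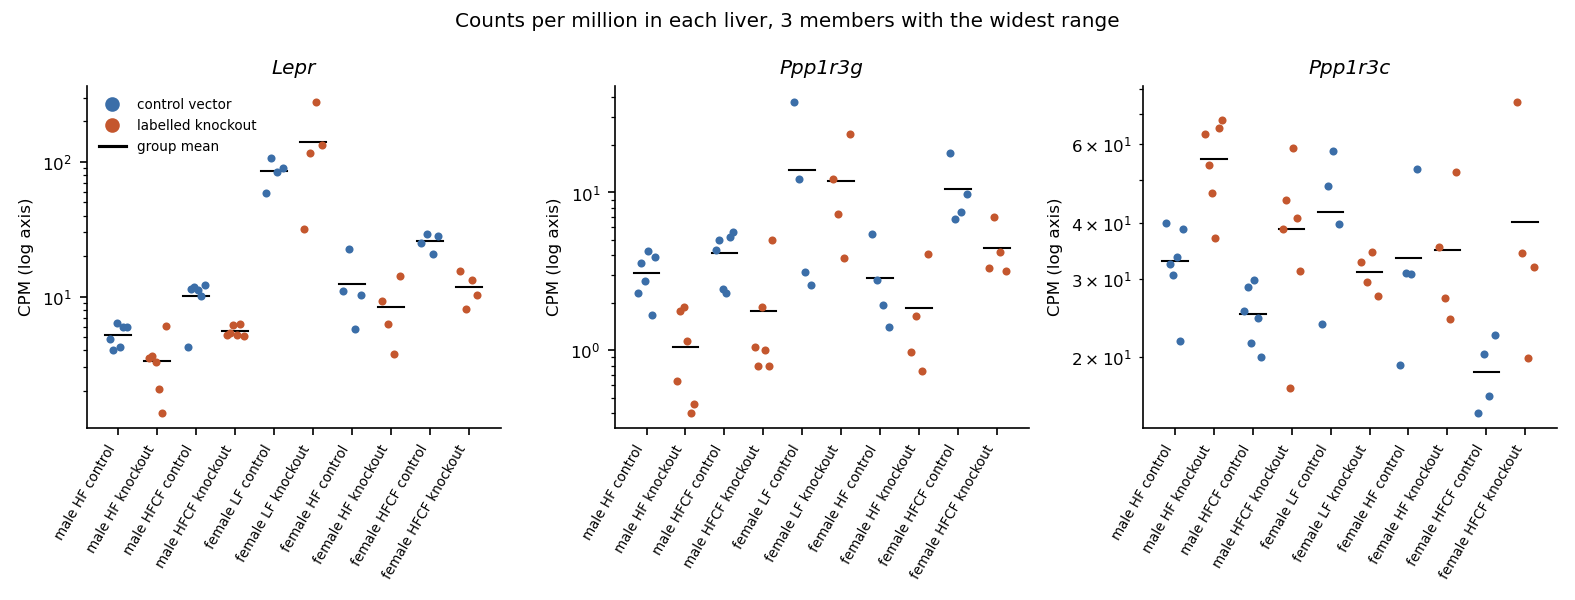
Level of Lepr, Ppp1r3g and Ppp1r3c in each of the 48 livers, in CPM on a log axis, by sex, diet and vector; each point is a liver and the horizontal line is the group mean. Lepr in LF females (32.0 to 280 CPM) lies above every other liver, and Ppp1r3g spreads most in LF control females (2.58 to 37.7 CPM).

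Lepr (chromosome 4, 101717404 to 101815352, + strand, overlapping no other annotated gene) was high in females on the low fat diet and low elsewhere. The 4 LF control females had 59.2, 108, 84.0 and 90.6 CPM, and the 4 LF labelled knockouts had 32.0, 116, 280 and 135 CPM. On the HF diet, control females had 11.02, 22.4, 5.79 and 10.2 CPM and labelled knockouts 9.26, 6.25, 3.77 and 14.1 CPM. No HF or HFCF liver of either sex reached the lowest LF female. Lepr fell from LF to HF in control females by 2.77 ± 0.35 on the log2 scale (edgeR adjusted p = 0.0114) and in labelled knockouts by 4.08 ± 0.61 (edgeR adjusted p = 0.0404). In the labelled knockouts the call held in 2 of 8 fits that each left out 1 liver, where the difference ran from -4.46 to -3.53. In controls it held in 7 of 8, the exception being the fit without LF control 4 (-2.74, edgeR adjusted p = 0.0507). It was the only one of the 10 genes called in either comparison, beside 0.696% of all genes tested in controls (0.443% higher, 0.253% lower) and 0.155% in labelled knockouts (0.0704% higher, 0.0844% lower). The LF to HF difference itself did not pass as different between vectors (interaction -1.31 ± 0.73, edgeR adjusted p = 0.999).

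On the HFCF diet, Lepr stayed below the LF level but stood above the HF level in controls. HFCF control females had 25.2, 29.4, 20.7 and 28.2 CPM, with a log2 difference of -1.73 ± 0.17 from LF controls (edgeR adjusted p = 0.00031) and of 1.08 ± 0.33 from HF controls (edgeR adjusted p = 0.0343). HFCF labelled knockout females had 15.6, 8.10, 13.3 and 10.3 CPM, a difference of -3.56 ± 0.51 from their LF counterparts (edgeR adjusted p = 0.00276). The rise over HF in control females held in 3 of 8 fits without 1 liver and was not called with all female groups in 1 fit (1.07, edgeR adjusted p = 0.0819), and HF and HFCF control livers overlapped. In males the levels were lower but the order of the diets was the same. HF control males ranged from 4.03 to 6.35 CPM (median 5.38) and HFCF control males from 4.22 to 12.2 CPM (median 11.3), a rise of 0.99 ± 0.21 (edgeR adjusted p = 0.0052) that held in 12 of 12 fits without 1 liver. HF labelled knockout males ranged from 1.38 to 6.10 CPM (median 3.40) and HFCF ones from 5.15 to 6.23 CPM (median 5.28), a rise of 0.76 ± 0.25 (edgeR adjusted p = 0.0223) that also held in 12 of 12. The lowest HFCF control male, at 4.22 CPM, is the library that lay closer to the HF controls; without it the rise was 1.15 (edgeR adjusted p = 6.21e-06).

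With the vector, Lepr was called on the HFCF diet in males. The log2 difference of labelled knockouts from controls was -0.88 ± 0.20 (edgeR adjusted p = 0.0319), at 5.54 ± 0.51 against 10.2 ± 2.98 CPM (SD, n = 6 each). Apart from control male 1, each HFCF control male was above each labelled knockout. The call held in 2 of 12 fits without 1 liver, those without control 1 (-1.03, edgeR adjusted p = 8.52e-06) and without labelled knockout 3. HFCF females showed values in the same direction, with no overlap between groups (8.10 to 15.6 against 20.7 to 29.4 CPM), but the difference of -1.12 ± 0.20 did not pass over all genes tested (edgeR adjusted p = 0.106). Without HFCF labelled knockout female 1 it did pass (-1.28, edgeR adjusted p = 0.0211). The values were -0.66 in HF males (edgeR adjusted p = 0.0919), which became -0.92 and a call without labelled knockout 6 (edgeR adjusted p = 0.0103), -0.57 in HF females (0.772) and 0.73 in LF females (1), none of the 3 called with all livers. In order of group means, the LF female groups overlapped, and the step from LF control females (85.3 CPM) to HFCF control females (25.9 CPM) was the only one between neighbouring groups without overlap.

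Of the 3 glycogen-targeting genes, Ppp1r3b (chromosome 8, 35375739 to 35388139, + strand) encodes the subunit best known from liver, often called GL. It was lower on HFCF than on HF. Control females had 272, 271, 363 and 237 CPM on HF and 152, 115, 131 and 155 CPM on HFCF. The sets did not overlap, and the level fell by 1.04 ± 0.15 on the log2 scale (edgeR adjusted p = 0.00546, called in 8 of 8 fits without 1 liver). In control males it fell by 0.83 ± 0.19 (edgeR adjusted p = 0.00666), from 131 to 295 CPM on HF (median 149) to between 81.4 and 125 CPM on HFCF (median 96.9), again with no overlap and a call in 12 of 12 fits. Labelled knockouts overlapped between these diets in both sexes. In females the difference of -0.64 ± 0.19 (edgeR adjusted p = 0.0434) held in 1 of 8 fits without 1 liver, and in males the difference was -0.53 ± 0.23 (edgeR adjusted p = 0.0746). Against LF, the HFCF level in control females fell by 0.76 ± 0.12 (edgeR adjusted p = 0.00171). Between LF and HF the difference was 0.31 ± 0.14 in control females (edgeR adjusted p = 0.305).

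Ppp1r3c (chromosome 19, 36731737 to 36736653, - strand), whose product PTG is the widely expressed targeting subunit, differed with the vector in HF males. Control males had 40.0, 32.3, 30.6, 33.6, 21.8 and 38.7 CPM, and labelled knockouts 63.4, 53.9, 46.7, 37.0, 65.3 and 68.2 CPM. Labelled knockout male 4 alone lay within the control range. The level was higher in labelled knockouts by 0.76 ± 0.15 (log2, edgeR adjusted p = 0.00269, called in 12 of 12 fits without 1 liver). The values pointed the same way on HFCF, at 0.63 ± 0.21 in males (edgeR adjusted p = 0.161; 0.78 and called at 0.011 without labelled knockout 3) and 1.13 ± 0.34 in females (0.495), without a call. In females that value rested in large part on HFCF labelled knockout 1, at 74.8 CPM against 34.3, 20.0 and 31.9 CPM in the others, and it was 0.64 without that library. In LF females the difference was -0.44 (edgeR adjusted p = 1). With diet, control females fell from 42.4 ± 14.5 CPM on LF to 18.6 ± 3.45 on HFCF (SD, n = 4 each), by 1.20 ± 0.24 on the log2 scale (edgeR adjusted p = 0.00437). The HF to HFCF difference in control females, -0.84 ± 0.27 (edgeR adjusted p = 0.0397), held in 1 of 8 fits without 1 liver.

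Ppp1r3g (chromosome 13, 35958839 to 35970388, + strand) encodes a targeting subunit described as induced by fasting in mouse liver. In HF males it was lower in labelled knockouts, where Ppp1r3c was higher. Control males had 2.30, 3.55, 2.76, 4.25, 1.66 and 3.93 CPM, and labelled knockouts 0.637, 1.78, 1.87, 1.14, 0.402 and 0.455 CPM. The groups overlapped only between control male 5 and labelled knockouts 2 and 3. The log2 difference was -1.57 ± 0.35 (edgeR adjusted p = 0.00566, called in 12 of 12 fits without 1 liver); the counts behind this were 28 to 74 reads per control liver and 7 to 30 per labelled knockout. On HFCF the difference was -1.25 ± 0.42 in males (edgeR adjusted p = 0.156), where labelled knockout 6 had 5.03 CPM and the other 5 had 0.792 to 1.89 CPM. Without that liver the difference was -1.88 and called (edgeR adjusted p = 0.00584). It was -1.22 ± 0.34 in females (edgeR adjusted p = 0.48). With diet, control females had 37.7, 12.1, 3.12 and 2.58 CPM on LF, 5.43, 2.79, 1.93 and 1.41 on HF, and 17.9, 6.83, 7.53 and 9.82 on HFCF. HF and HFCF did not overlap, a rise of 1.86 ± 0.44 (edgeR adjusted p = 0.0145, called in 8 of 8 fits without 1 liver). The call was lost with all female groups in 1 fit (1.87, edgeR adjusted p = 0.0508). The LF livers spread over the widest range, and the LF to HF difference of -2.24 ± 0.82 did not pass (edgeR adjusted p = 0.224).

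Gcgr (chromosome 11, 120530699 to 120538986, + strand) was lower on HFCF in both sexes. Its locus overlaps the antisense gene Gm11789, with no shared exon bases, and the libraries were not strand specific. Gm11789 had 29052 reads over all libraries, at most 883 in a library, beside 288836 for Gcgr. Control females had 355, 425, 499 and 561 CPM on LF, 343, 476, 429 and 449 on HF, and 253, 250, 327 and 255 on HFCF. The HFCF livers lay below every LF and HF control, with log2 differences of -0.77 ± 0.15 from LF (edgeR adjusted p = 0.00416) and -0.63 ± 0.13 from HF (edgeR adjusted p = 0.009), each called in 8 of 8 fits without 1 liver. Labelled knockout males had 342 to 388 CPM on HF (median 365) and 222 to 271 CPM on HFCF (median 262), without overlap, a difference of -0.51 ± 0.06 (edgeR adjusted p = 1.98e-05). In control males the difference was -0.23 ± 0.08 (edgeR adjusted p = 0.0448, called in 2 of 12 fits without 1 liver), and -0.30 (edgeR adjusted p = 0.000741) without HFCF control male 1, which at 340 CPM was above the other 5 (239 to 272 CPM). HFCF labelled knockout females had 425, 260, 284 and 257 CPM. The first is the library closer to another diet, and without it the difference from HF moved from -0.45 (edgeR adjusted p = 0.0944) to -0.63 (0.00183). With the vector, Gcgr was 1.13-fold higher in labelled knockout HF males (0.17 ± 0.06, edgeR adjusted p = 0.0467), a call kept in 3 of 12 fits without 1 liver and lost with all male groups in 1 fit (0.18, edgeR adjusted p = 0.0673), and it was called in no other comparison of the vectors.

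Insr (chromosome 8, 3122061 to 3279617, - strand) was lower on HFCF than on HF. Control females had 229, 225, 210 and 260 CPM on HF and 187, 184, 190 and 155 on HFCF; labelled knockouts had 225, 215, 188 and 257 on HF and 128, 158, 162 and 136 on HFCF. Neither pair of groups overlapped, and the differences were -0.36 ± 0.09 (edgeR adjusted p = 0.0204) and -0.60 ± 0.13 (edgeR adjusted p = 0.0148). The first was kept in 5 of 8 fits without 1 liver, and the second in 7 of 8, lost without labelled knockout 4 of HFCF (edgeR adjusted p = 0.0524). Control males fell by 0.26 ± 0.06 (edgeR adjusted p = 0.0096), from a median of 216 to 170 CPM, with overlap through HFCF control male 1 (212 CPM). In labelled knockout males the difference was -0.16 ± 0.10 (edgeR adjusted p = 0.198).

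Irs1 (chromosome 1, 82233101 to 82291416, - strand) and Irs2 (chromosome 8, 10984681 to 11008458, - strand) were called in 1 comparison each, HFCF against LF in control females. Irs1 had 22.5, 23.0, 30.1 and 17.6 CPM on LF and 16.0, 14.4, 13.1 and 16.3 on HFCF, a log2 difference of -0.65 ± 0.15 (edgeR adjusted p = 0.00978). Irs2 had 77.7, 67.6, 60.3 and 66.7 CPM on LF and 46.4, 47.8, 49.5 and 39.1 on HFCF, a difference of -0.58 ± 0.10 (edgeR adjusted p = 0.00269). Neither pair overlapped, and both calls held in 8 of 8 fits without 1 liver. With all female groups in 1 fit the Irs2 difference was -0.55 (edgeR adjusted p = 0.051). The HF controls lay between, at 17.8 ± 1.68 CPM for Irs1 and 48.8 ± 10.4 CPM for Irs2 (SD, n = 4 each). By group means, the 6 female groups had more Irs2 (33.6 to 68.1 CPM) than the 4 male groups (28.8 to 33.3 CPM), although neighbouring groups overlapped. Sex was not tested directly, since the sexes were handled as separate sets of animals and anything else that differed between those sets cannot be told apart from it.

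Pik3r1 (chromosome 13, 101680563 to 101768217, - strand) was called only for HFCF against HF in control males, where it fell by 0.22 ± 0.07 (edgeR adjusted p = 0.0255, called in 8 of 12 fits without 1 liver), from 118 to 141 CPM (median 134) to between 96.1 and 123 CPM (median 112), with overlap. Foxo1 (chromosome 3, 52268336 to 52353221, + strand) was called only for the same diets in labelled knockout females. These had 55.1, 52.8, 49.96 and 47.1 CPM on HF and 35.4, 37.3, 39.6 and 36.3 on HFCF, without overlap, a difference of -0.46 ± 0.09 (edgeR adjusted p = 0.0107, called in 8 of 8 fits without 1 liver). In control females the difference was -0.18 ± 0.07 (edgeR adjusted p = 0.0709). On HFCF the labelled knockout females also lay below the controls (35.4 to 39.6 against 43.3 to 49.6 CPM) without overlap, at -0.32 ± 0.09, which did not pass over all genes tested (edgeR adjusted p = 0.48).

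**Figure D2:**
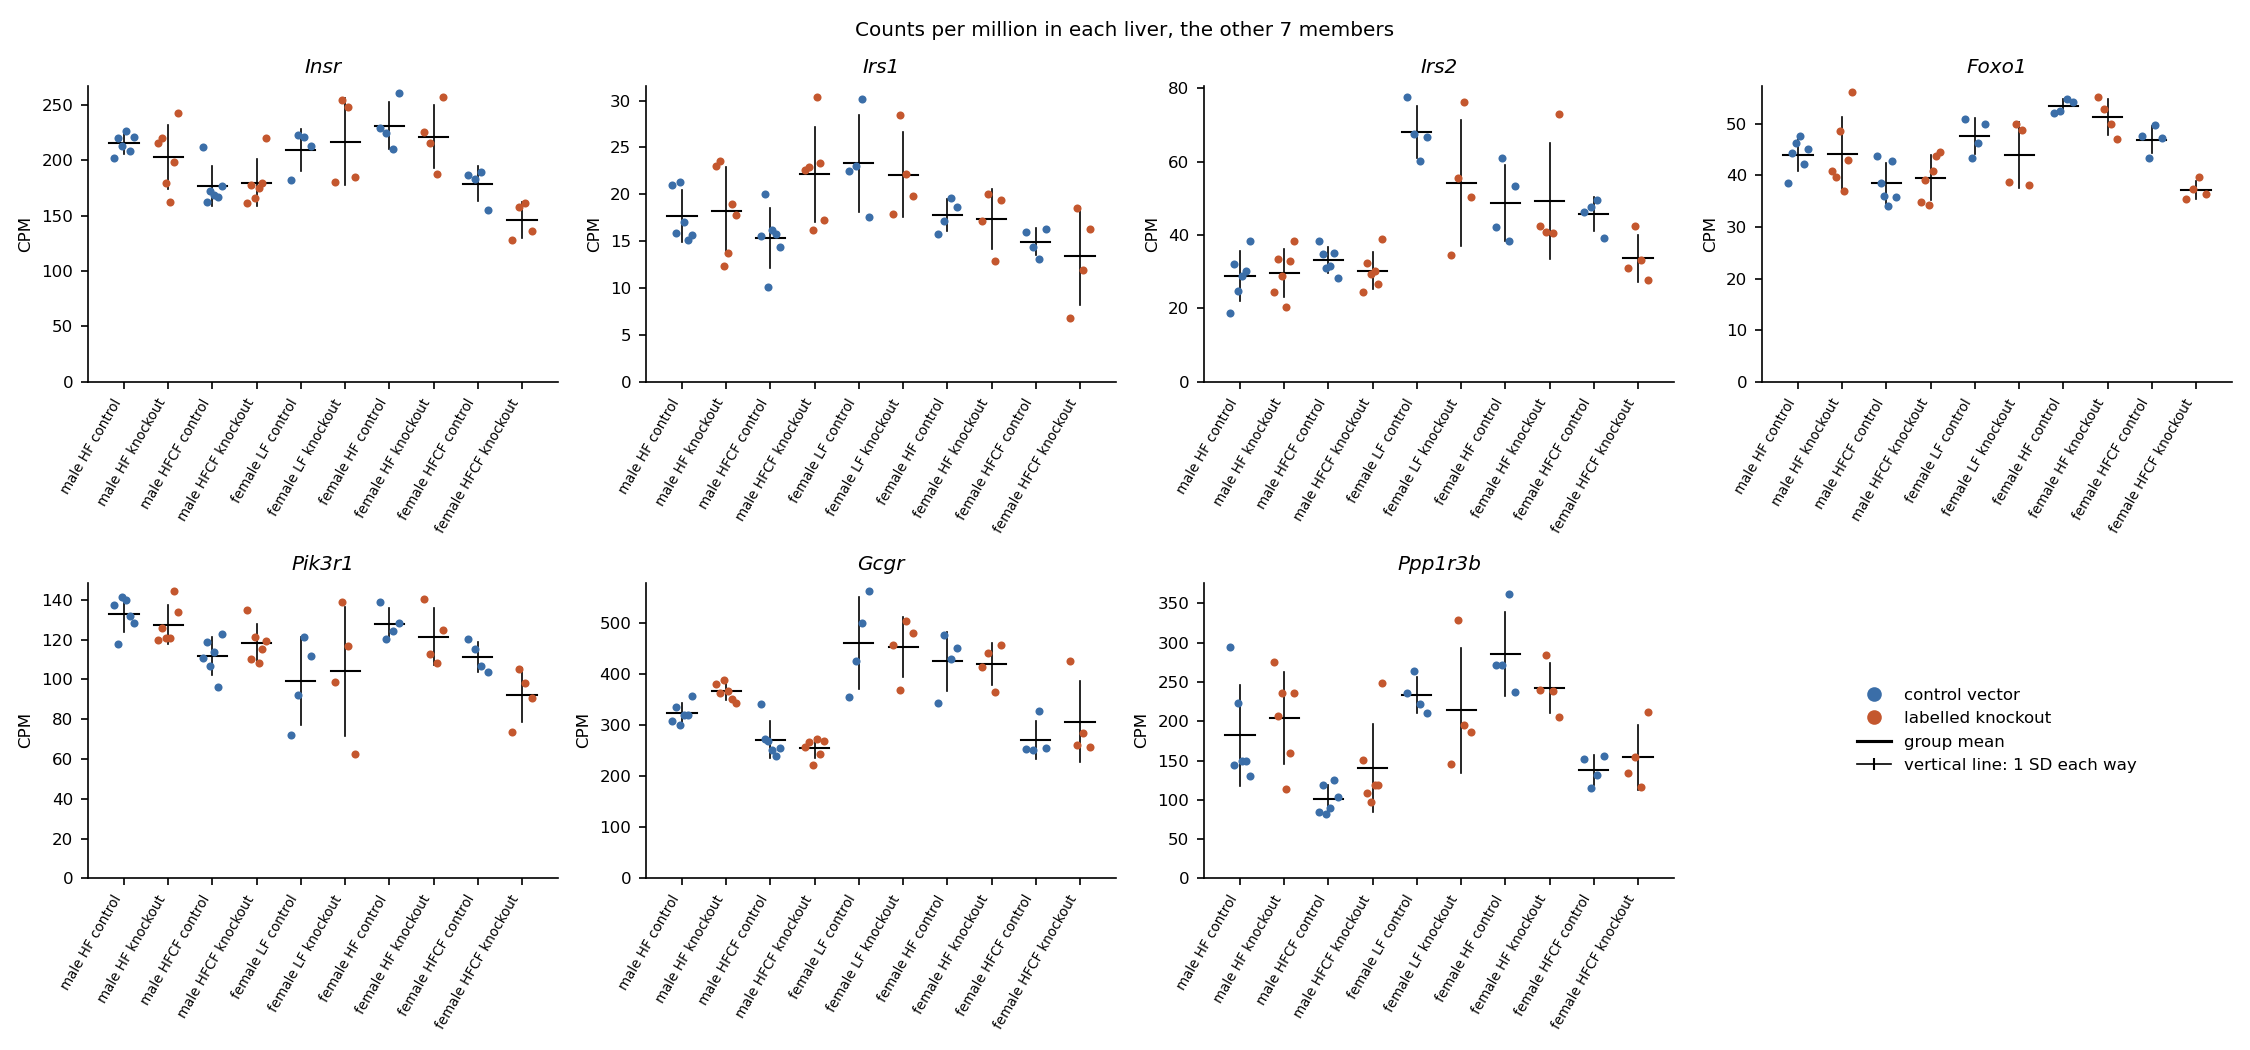
Level of Insr, Irs1, Irs2, Foxo1, Pik3r1, Gcgr and Ppp1r3b in each of the 48 livers, in CPM on an axis from 0; points are livers, horizontal lines group means and vertical lines 1 SD each way. Gcgr and Ppp1r3b sit lowest in the HFCF groups, and Foxo1 and Pik3r1 span 1.44-fold between their highest and lowest group means.

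Counted over all 10 genes, the diet comparisons that ended in HFCF held most of the calls. For HFCF against LF in control females 6 genes were called, all lower, beside 35.2% of all genes tested (18.4% higher, 16.8% lower): Irs1, Irs2, Gcgr, Lepr, Ppp1r3b and Ppp1r3c. In labelled knockout females 1 was called, Lepr, beside 12.0% of all genes (8.26% higher, 3.74% lower); without HFCF labelled knockout female 1, Insr (-0.50) and Gcgr (-0.74) were called too. For HFCF against HF, 6 were called in control females beside 30.8% of all genes, 16.9% higher and 13.8% lower (Insr, Gcgr, Ppp1r3b and Ppp1r3c lower, Lepr and Ppp1r3g higher). In labelled knockout females 3 were called beside 14.5%, 8.44% higher and 6.01% lower (Insr, Foxo1 and Ppp1r3b lower). In control males 5 were called beside 22.3%, 13.0% higher and 9.31% lower (Insr, Pik3r1, Gcgr and Ppp1r3b lower, Lepr higher), and 7 without HFCF control male 1, which added Foxo1 and Ppp1r3c. In labelled knockout males 2 were called (Gcgr lower, Lepr higher) beside 41.7% of all genes (21.6% higher, 20.0% lower), a larger share than that of the 10 genes. With the vector, 3 of 10 were called in HF males (Gcgr and Ppp1r3c higher, Ppp1r3g lower) beside 18.5% of all genes (8.57% higher, 9.88% lower). Lepr alone was called, lower, in HFCF males beside 2.21% (0.933% higher, 1.27% lower). None was called in LF, HF or HFCF females by edgeR, beside 0.0%, 0.0% and 0.0534% of all genes (on HFCF 0.00668% higher and 0.0467% lower). At an unadjusted edgeR p under 0.05 the counts were 0, 0 and 6 of the 10 genes. Over all genes these counts were 355 of 14285, 1135 of 14128 and 1340 of 14980. DESeq2's Wald test called 0, 0 and 1 of the 10 genes.

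Without the libraries closest to another diet, a choice that can by itself widen diet differences, the calls they took part in were as follows. For HFCF against HF in control females, the differences were -0.36 for Insr, -0.72 for Gcgr, -1.06 for Ppp1r3b, -1.03 for Ppp1r3c, 1.03 for Lepr and 2.37 for Ppp1r3g, all called (highest of these edgeR adjusted p values 0.0355, for Lepr). In labelled knockout females Insr (-0.52) and Foxo1 (-0.42) were called, and Ppp1r3b was not (-0.57, edgeR adjusted p = 0.0512). In control males Insr (-0.31), Pik3r1 (-0.22) and Ppp1r3b (-0.78) were called, and Insr no longer overlapped between the diets. Lepr was called at -2.72 for HF against LF in control females and at -3.71 for HFCF against LF in labelled knockout females. Other single livers also decided calls. Insr was called for HFCF against LF without LF control 1 in controls (-0.29), and in labelled knockouts without LF labelled knockout 1 (-0.63, with Irs2 at -0.83) or 4 (-0.62), while Ppp1r3g was called there without LF labelled knockout 3 (-1.65). Between HF and HFCF, Foxo1 was called in control females without HFCF control 3 (-0.21) and in control males without HF control 1 (-0.21). Ppp1r3g was called in labelled knockout females without HF labelled knockout 4 (2.01). Ppp1r3c was called in control males without HF control 5 (-0.46) or HFCF control 4 (-0.43), and in labelled knockout males without HF (-0.61) or HFCF (-0.68) labelled knockout 4. Ppp1r3b was called in labelled knockout males without HF labelled knockout 4 (-0.65) or HFCF labelled knockout 6 (-0.74).

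**Figure D3:**
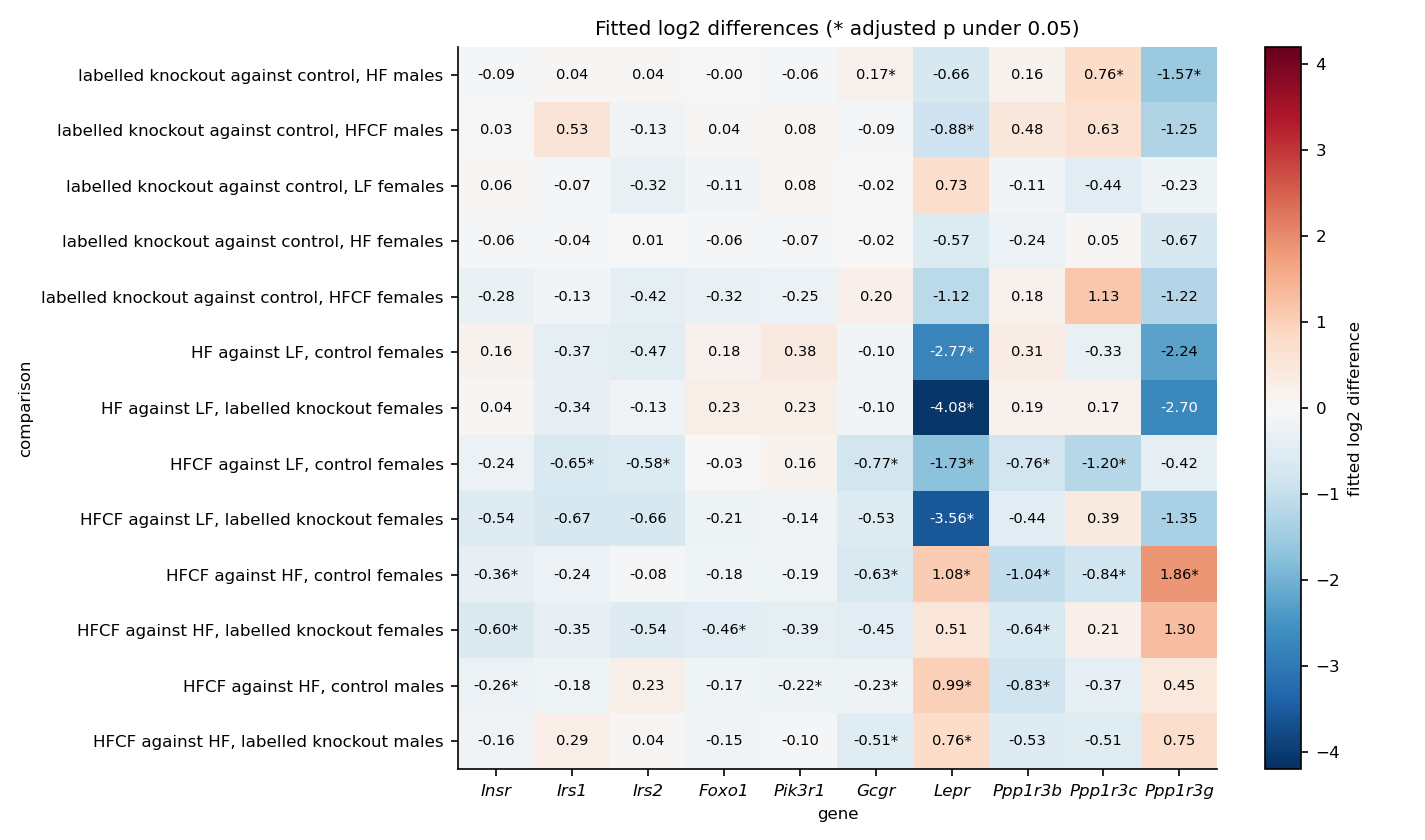
Fitted log2 differences of the 10 genes (columns) in the 13 pairwise comparisons (rows), first-named group minus second; red is higher, blue lower, and an asterisk marks an edgeR adjusted p under 0.05. Lepr holds the largest value, -4.08 for HF against LF in labelled knockout females, and the rows of labelled knockout against control females hold no asterisk.

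Cell-type markers moved with these comparisons. For HFCF against HF, every cholangiocyte marker tested was higher (6 of 6 in control females and in both male comparisons, 5 of 5 in labelled knockout females). In control females the summed cholangiocyte level was 43.3 to 277 CPM on HF and 306 to 551 on HFCF, with 4 of 8 macrophage markers and 5 of 7 sinusoidal endothelial markers also higher. Hepatocyte markers were lower in part (4 of 8 in control females and control males, 5 of 8 in labelled knockout males, 0 of 8 in labelled knockout females) and 1 of 8 was higher in each, with a summed level of 95429 to 110125 CPM on HF and 59692 to 72803 on HFCF in control females. For HFCF against LF in control females, 6 of 6 cholangiocyte and 5 of 8 stellate cell markers were higher and 5 of 8 hepatocyte markers lower. The part of these shifts in the differences above was not tested. For HF against LF, where Lepr fell most, 0 of 8 hepatocyte, 0 of 8 stellate cell, 0 of 7 endothelial and 0 of 8 macrophage markers were called in either vector group, and 1 of 2 adipocyte markers tested was higher in each. Of that list of 6, Plin1 had no reads in any of these female groups, and Retn had none in either control group. Adipoq had none in HF labelled knockouts, so the difference in this list was not read as one in adipocytes. The summed stellate level was 538 to 710 CPM in LF controls and 430 to 790 in HF controls. In HF males, where Ppp1r3c and Ppp1r3g differed with the vector, 3 of 5 blood markers were higher in labelled knockouts (summed level 164 to 816 against 165 to 247 CPM in controls) and 6 of 8 hepatocyte markers higher and 1 lower (97050 to 110447 against 68776 to 92173 CPM). Stellate cell markers were lower for 3 of 8. For HFCF against HF in labelled knockout males, where Gcgr and Lepr were called, 5 of 5 blood markers were lower, with a median difference of -1.46. Their part in those differences was not tested.

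Whether the vector's difference changed with diet or sex, or the diet's with sex, was tested by 7 interaction terms. None of the 10 genes was called in any of them by edgeR. The share of all genes called was 1.56% for the vector by diet in males (0.987% higher, 0.57% lower), 0.0% for the vector by diet in females (HFCF with HF, and HF with LF) and by sex (HF, and HFCF), 0.00646% (all lower) for diet by sex in controls and 0.013% for diet by sex in labelled knockouts (0.00649% each way). At an unadjusted edgeR p under 0.05, the counts in that order were 1, 2, 0, 0, 4, 2 and 4 of 10. Over all genes they were 2574 of 15096, 667 of 15445, 554 of 14938, 1590 of 15024, 1515 of 15673, 2561 of 15491 and 1829 of 15400. DESeq2's Wald test called 0 of the 10 genes in each. Diet by sex in controls turned on HF control female 1. Without it and HFCF control male 1, the HFCF minus HF difference of Gcgr was less negative in males than in females (male minus female 0.44, edgeR adjusted p = 0.0161) and that of Ppp1r3g smaller in males (-1.92, edgeR adjusted p = 0.02), beside 1790 of 15737 genes called. With both libraries the values were 0.42 (0.22) and -1.41 (0.225), and without HF control female 1 alone 2 of the 10 genes were called too.

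The rest of the pathways was read from 5 lists of other genes. With the vector in females, 0 genes of any list were called by edgeR on any diet. At an unadjusted edgeR p under 0.05 the counts per list were 0 to 1 on LF, 1 to 5 on HF and 0 to 6 on HFCF. Over all genes they were 355 of 14285, 1135 of 14128 and 1340 of 14980. Of 37 insulin pathway genes, HFCF against HF gave 8 higher and 6 lower in control females, 8 and 7 in control males, 10 and 6 in labelled knockout males, and 1 and 3 in labelled knockout females. The shares of all genes called in these comparisons were 30.8%, 22.3%, 41.7% and 14.5%, and they stand beside the HFCF against HF counts of every list that follows. Pik3cd, a catalytic kinase subunit known mainly from leukocytes, was higher in control females by 1.43 (log2, edgeR adjusted p = 0.0045), in control males by 1.06 (0.0022) and in labelled knockout males by 1.18 (8.7e-06). Grb10, an adaptor that restrains the insulin receptor, was higher in all 4, by 0.81 to 1.17. The median of the list was 0.02 in control females and -0.06 in control males, beside -0.02 and 0.01 over all genes tested. With the vector in HF males, 1 of the 37 was higher and 3 lower, beside 18.5% of all genes called, the background for the other lists in that comparison too. Ceacam1, which promotes insulin clearance, was higher by 0.42 (edgeR adjusted p = 0.00051), and Trib3, an inhibitor of AKT, was lower (-0.68 ± 0.16, 0.0096), as it was in HFCF males (-0.67, edgeR adjusted p = 0.021). The kinase genes Mtor (-0.53, edgeR adjusted p = 0.00021) and Gsk3b (-0.27, 0.0068) were also lower in HF males.

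Among 27 other glycogen genes, Gys2 and Slc37a4 were lower in all 4 comparisons of HFCF with HF. Gys2, the liver glycogen synthase, had log2 differences of -0.83 in control females, -0.72 in labelled knockout females, -0.56 in control males and -0.61 in labelled knockout males. Slc37a4, the glucose 6-phosphate transporter, had -1.13, -0.91, -0.51 and -0.76 in that order. The highest edgeR adjusted p of these 8 values was 0.019. Called counts were 2 higher and 8 lower of 26 tested in control females, and 1 and 6 of 25 in control males. In labelled knockouts they were 2 and 4 of 25 in females, and 5 and 7 of 26 in males. The list's medians were -0.14, -0.10, -0.13 and -0.03 in the order of the Gys2 values, beside -0.02, -0.0095, 0.0062 and -0.02 over all genes tested. Pygb, the brain form of glycogen phosphorylase, was higher by 1.22 in labelled knockout females and 1.25 in labelled knockout males. Against LF, it was higher on HFCF in both vector groups of females. The differences were 1.37 in controls (edgeR adjusted p = 0.0006) and 1.13 in labelled knockouts (edgeR adjusted p = 0.013). Its HFCF means were 23.5 ± 3.51 CPM in control and 19.4 ± 4.72 CPM in labelled knockout females (SD). With the vector in HF males, 2 of 24 tested were higher (Phkg2, a phosphorylase kinase subunit, by 0.41, and Slc37a4 by 0.34) and 2 lower (Gyg, the primer protein glycogenin, at -0.48, and Gbe1, the branching enzyme, at -0.29).

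Of 18 genes of the glucagon and cAMP pathway, the adenylyl cyclase gene Adcy1 differed with diet. It was lower on HF than on LF in control females (-3.45 ± 0.65, edgeR adjusted p = 0.048) and higher on HFCF than on HF in control (3.47, edgeR adjusted p = 0.011) and labelled knockout females (3.44, 0.013). The HF means of Adcy1 were near the floor, at 0.65 ± 0.78 CPM in controls and 0.42 ± 0.35 CPM in labelled knockouts (SD). Control females had 7.35 ± 2.63 CPM on LF and 7.36 ± 5.83 CPM on HFCF, and HFCF labelled knockouts 4.48 ± 2.98 CPM. For the vector in HF males, 2 of 17 tested were higher and 3 lower, with Adcy6, another adenylyl cyclase gene, at -0.99 (edgeR adjusted p = 7.1e-07) and the cAMP phosphodiesterase gene Pde4d at -1.10 (0.0002). The list's median there was -0.05, beside 0.0002 over all genes tested. On HFCF against HF it had 2 higher and 1 lower of 18 in control females, 2 and 2 in labelled knockout females, 1 and 3 in control males, and 3 and 3 of 17 in labelled knockout males. Adcy6 was also lower in labelled knockout HFCF males (-0.66, edgeR adjusted p = 0.00023). Of 11 leptin pathway genes, Leprot and Leprotl1, which encode proteins that limit leptin receptor at the cell surface, were both higher on HFCF than on HF in all 4 comparisons, by 0.32 to 0.76. The list had 3 higher and 0 lower in control females, 2 and 1 in labelled knockout females, 4 and 0 in control males, and 4 and 2 in labelled knockout males, with medians of 0.16, -0.03, 0.07 and 0.13. Igfbp2, a leptin-responsive binding protein, was higher by 1.54 in control males (edgeR adjusted p = 0.00012). It was also higher with the vector in HF males (0.79, edgeR adjusted p = 0.0048), and lower on HFCF than on LF in control females (-1.24, edgeR adjusted p = 0.0004). Stat5a was lower in labelled knockout males on HF (-0.52, edgeR adjusted p = 0.0027) and HFCF (-0.38, 0.021).

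A further 16 liver genes known to respond to insulin or glucagon were read beside the receptors. For HF against LF, 0 of 16 were called in control females and 2 lower in labelled knockouts (beside 0.696% and 0.155% of all genes), the glucose 6-phosphatase gene G6pc (-1.83, edgeR adjusted p = 0.04) and Gadd45g (-3.48, 0.035). The list's median was -0.36 and -0.75, beside -0.0020 and 0.0034 over all genes tested. An unadjusted edgeR p under 0.05 was found for 6 of the 16 in controls and 11 in labelled knockouts. Over all genes the counts were 2314 of 14216 and 1902 of 14214. For HFCF against LF, 1 was higher and 7 lower in control females, and 1 higher and 6 lower in labelled knockouts, beside 35.2% and 12.0% of all genes. G6pc was at -1.47 in both, and Pck1, a key enzyme of gluconeogenesis, at -1.88 in labelled knockouts (edgeR adjusted p = 0.0015). On HFCF against HF, 3 were higher and 2 lower in control and in labelled knockout females, 0 and 4 in control males, and 2 and 5 in labelled knockout males, with medians of -0.23, -0.12, -0.20 and -0.10. Pdk4, which restrains pyruvate oxidation in fasting, was higher there in control females (1.20, edgeR adjusted p = 0.034), labelled knockout females (1.54, 0.022) and labelled knockout males (1.53, 0.0012), and Igfbp1 in control females (1.07, 0.049). In HF males with the vector, 2 were higher and 4 lower. Pdk4 was at -1.84 (edgeR adjusted p = 0.00024), and Tat, a tyrosine-degrading enzyme induced by glucagon and also counted among the hepatocyte markers, was higher by 1.20 (0.0016). Cdkn1a was lower (-1.50, edgeR adjusted p = 0.0008) and Sds higher (0.72, 0.0086). For HFCF against LF in control females the insulin list had 7 higher and 4 lower of 37, the glucagon and cAMP list 4 and 3 of 18, the leptin list 2 and 2 of 11 and the glycogen list 7 and 4 of 26. In labelled knockout females these were 1 and 0, 0 and 2, 2 and 0, and 3 and 2.

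Within groups, the 10 genes were compared pair by pair over the 48 livers, on log2 CPM centred on each group's mean, with livers permuted within groups and 45 pairs adjusted together. One pair passed, Insr with Irs2, at Pearson r = 0.640 (permutation p = 6e-05, adjusted 0.0027) and Spearman rho = 0.595 (permutation p = 0.00014, adjusted 0.0063). Without the 2 livers farthest from the median of Insr, r was 0.582. It was 0.641 over the 24 males (permutation adjusted p = 0.0178) and 0.638 over the 24 females (permutation adjusted p = 0.187). Over the females alone the pair that passed was Insr with Pik3r1 (r = 0.704, permutation adjusted p = 0.0495; r = 0.034 over the males). The next pair, Insr with Foxo1, had r = 0.507 (permutation p = 0.00557, adjusted 0.0618) and rho = 0.416. Ppp1r3c and Ppp1r3g, which were called in opposite directions in HF males, had r = -0.35 within groups (permutation p = 0.0394, adjusted 0.222).

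**Figure D4:**
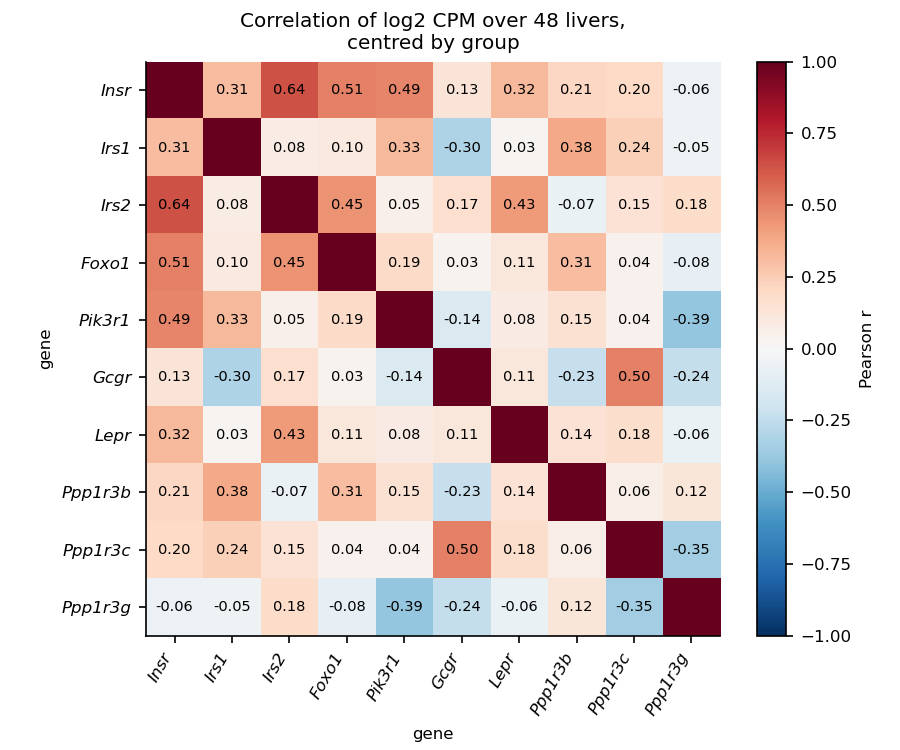
Pearson correlation of each pair of the 10 genes over the 48 livers, on log2 CPM centred on group means; rows and columns are genes, red is positive and blue negative. Insr with Irs2 has the highest value, 0.64.

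Across the 10 group means of log2 CPM, the gene most like each of these was looked for among 12315 genes averaging 1 CPM or more. Genes with symbols of predicted genes or clones were left out of this search. These correlations are descriptions over 10 points that share sex and diet. Closest to Lepr were Atat1 (r = 0.961), Pabpc1 (0.959) and Socs2 (0.954). Closest to Ppp1r3g were Igfbp1 (0.954), an insulin-repressed and fasting-induced binding protein, Plod3 (0.932) and Adcy1 (0.900). Gcgr was closest to Serpina1b (0.990), Ggnbp1 and Stard10 (0.988 each), and Ppp1r3b to Tfam (0.979), Fign (0.976) and Sepsecs (0.971). Insr was closest to Josd1 and Zbtb44 (0.964 each) and Rnf152 (0.961). Irs2 was closest to Rnf166 (0.970), Lrfn4 (0.954) and Camkk2 (0.951), and Irs1 to Zmym2 (0.943), Zfp512b (0.927) and Ints6 (0.924). Pik3r1 was closest to Wwp1 (0.974), Emc1 (0.973) and Adcy9 (0.971), and Foxo1 to Klf13 (0.956), Fbxo3 (0.934) and Tfb2m (0.927). Ppp1r3c was closest to Arpc5l (0.956), Parp9 (0.917) and Mplkip (0.901).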

How the data were processed

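Whole-liver RNA was sequenced from non-strand-specific libraries with inserts of 250 to 300 bp, per the labels. The values used are counts, whole numbers of reads per gene as deposited by the authors. STAR 2.6.1, HTSeq 0.6.1, DESeq2 and the builds GRCm38 and mm10 are named in the submitters' processing notes. The deposited gene length served only for values per kilobase. The 11 deposited tables were joined by gene ID into 29221 genes by 48 libraries; 0 of 1341082 repeated counts differed, and genes missing from a table were set to 0. Their coordinates equal GENCODE M21 for 97.3% of genes. No column was left without a sample (0).

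Each comparison was fitted to its own groups with edgeR 4.0.16 in R 4.3.3 (TMM, filterByExpr, quasi-likelihood F test), with Benjamini-Hochberg adjustment over all genes tested and a call at an adjusted p under 0.05; differences are log2, with standard errors. The fits were tested on simulated data. Alternatives were DESeq2 1.42.0 size factors and its Wald test, no filter on low counts, all groups of a sex in 1 fit, replicate numbers as a block, each library left out, and, added after seeing the data, 3 libraries left out together. Correlations used 100000 permutations within groups.

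The 10 genes and the lists were chosen with earlier results of these data known. Named were all 10 genes and the 3 genes most like each of them. From each list and comparison, names were drawn from the up to 4 called genes with the largest log2 difference and a mean of at least 1 CPM. Not all of those are printed. Marker lists were hepatocyte, macrophage, endothelial, stellate, cholangiocyte, lymphocyte, adipocyte, pancreas and blood. Lymphocyte markers were called in few comparisons (at most 2 of 7), and Lep of the adipocyte list and Ins1, Ins2, Cpa1 and Pnlip of the pancreas list were not analysed here.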

Additional observations from a re-analysis of the deposited data

Results flagged for a closer look

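In 9 of 100 sets of livers (10 genes in 10 groups), the highest or lowest liver stood apart from the rest of its group by more than Dixon's 95% criterion allows; chance flags about 1 in 20 sets. Of these, 3 belong to HFCF control male 1, whose profile lay closer to the HF controls. It had 212 CPM of Insr (the other 5 had 162 to 177), 340 CPM of Gcgr (239 to 272) and 4.22 CPM of Lepr (10.1 to 12.2), each nearer to the level of the HF control males. Another 3 belong to HFCF labelled knockout male 6, which had 220 CPM of Insr (others 161 to 180), 249 CPM of Ppp1r3b (97.2 to 151) and 5.03 CPM of Ppp1r3g (0.792 to 1.89). HFCF labelled knockout female 1 had 425 CPM of Gcgr (others 257 to 284), and HFCF control female 3 had 327 CPM (others 250 to 255). HF labelled knockout female 4 had 72.9 CPM of Irs2 against 40.6 to 42.5 in the others. The causes were not tested.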

How the results depend on the processing

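No called difference of the 10 genes changed sign under an alternative. Of their refitted differences, 3566 kept their side of the threshold, 60 gained a call and 84 lost it. Most refits were of differences not called with all livers, which cannot lose a call. The 3566 therefore do not measure how stable the calls were, and several calls held in few fits without 1 liver, as given above. Fits without 1 liver gave these ranges of called genes among the 10: 0 to 2 for the vector in HFCF males (1 with all livers), 0 to 1 in HFCF females (0), 0 to 1 for HF against LF in either vector group (1 each) and 1 to 3 for HFCF against LF in labelled knockout females (1). For HFCF against HF they gave 3 to 6 in control females (6), 3 to 7 in control males (5) and 2 to 4 in labelled knockout males (2), and for diet by sex in controls 0 to 2 (0). Calls moved elsewhere too. For the vector in HF males, Gcgr was lost in most such fits, and Lepr was gained without labelled knockout 6. In labelled knockout females, Ppp1r3b or Insr could be lost for HFCF against HF. In control females, Insr was gained for HFCF against LF without LF control 1. DESeq2's Wald test called 2 for the vector in HFCF males, 1 in HFCF females, 2 for HF against LF in labelled knockouts and 5 for HFCF against LF in labelled knockouts. Without the filter on low counts these last 3 were 1, 2 and 5. For HFCF against LF in labelled knockouts, DESeq2 size factors gave 2 and all groups of the sex in 1 fit gave 5, which gave 3 for HFCF against HF in control females, losing Lepr, Ppp1r3c and Ppp1r3g. Without the 3 libraries closest to another diet, the counts were 1 for the vector in HFCF females, 3 for HFCF against LF in labelled knockouts and 2 for diet by sex in controls. Over the males alone, 3 correlated pairs passed in place of 1, and over the females alone 1, a different pair.

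Same-numbered livers correlated at -0.229 to 0.340 in their deviations, in no comparison all above 0.1, so the numbers were not taken as pairing. With replicate numbers as a block, the counts among the 10 were 3 for HFCF against LF in labelled knockout females, and for HFCF against HF 0 in control females, 1 in labelled knockout females and 3 in control males. The block kept a count of 1 but exchanged the gene for the vector in HFCF males (Lepr lost at -0.82, Irs1 gained at 0.52) and for HF against LF in labelled knockouts (Lepr lost at -3.80, Ppp1r3g gained at -2.66). Over all genes, the block gave 165 calls for the vector in HFCF males (324 without), 0 in HFCF females (8), 9 for HF against LF in labelled knockouts (22) and 2036 for HFCF against LF in controls (5199). For HFCF against HF it gave 0 in control females (4526) and 1180 in labelled knockout females (2118), for the vector by diet in males 127 (235), and for diet by sex 0 in controls (1) and 12 in labelled knockouts (2). HFCF control females have a number 5 and no 4, unlike HF and LF control females. In both comparisons the block thus leaves few livers to estimate the spread, and it gave 0 calls against HF and 2036 against LF. Why these differ was not tested. At an unadjusted edgeR p under 0.05 the block gave 4323 genes for HFCF against HF in control females, where the fit without it gave 6526.

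Over all genes, DESeq2's Wald test called 719 for the vector in HFCF males, 8, 70 and 81 in LF, HF and HFCF females (0, 0 and 8 by edgeR), 667 and 510 for HF against LF in controls and labelled knockouts (99 and 22), and 610 for the vector by diet in males. It called 2 for the vector by diet (HF with LF) in females, 46 and 17 for the vector by sex on HF and HFCF (0 each), and 134 and 172 for diet by sex in controls and labelled knockouts. Without the filter the counts were 1 and 26 for the vector in HF and HFCF females, 185 and 124 for HF against LF, 1 for the vector by sex on HF and 18 for diet by sex in labelled knockouts. With all groups in 1 fit they were 2 for the vector in HF females, 313 and 114 for HF against LF, 2747 for HFCF against LF in labelled knockouts (1754), 2 for the vector by sex on HF, and 0 and 38 for diet by sex. DESeq2 size factors gave 6 for diet by sex in labelled knockouts. Without the 3 libraries they were 1052 and 19 for the vector in HFCF males and females, 3587 for HFCF against LF in labelled knockouts, 4402 and 5429 for HFCF against HF in labelled knockout females and control males (3225), 287 for the vector by sex on HF, and 1790 and 7 for diet by sex. Depth limits Ppp1r3g most, at 7 to 74 reads per HF male liver. Causes of these shifts were not tested.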
